A study of Mus musculus with 8 samples.

Results

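The 10 genes described here encode matrix proteins and regulators of odontoblasts, osteoblasts and osteocytes, the cells that form dentin and bone. They are Dspp, Dmp1, Ibsp, Mepe, Spp1, Phex, Bglap, Bglap2, Sp7 and Sost. They were taken by gene name from the deposited table of read counts, in which they are 10 of 54532 genes. RNA-seq was performed on first molar enamel organs of untreated wild type (wt) C57BL/6 mouse pups at postnatal day 5 (P5, secretory stage of enamel formation) and at day 12 (P12, maturation stage), after the soft tissue of the pulp chambers had been removed. Each of the 4 libraries at either age was made from polyA-captured RNA of a separate pool of 5 pups. Ages were compared between these pools.

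Dspp, Dmp1, Ibsp, Mepe and Spp1 encode the SIBLING family of acidic, integrin-binding phosphoproteins that are secreted into mineralizing matrix, where they bind calcium phosphate and influence crystal growth. Odontoblasts, which face the enamel organ across the forming dentin, are the main source of Dspp. Osteoblasts make Ibsp, Spp1 and the osteocalcins (Bglap, Bglap2) under the control of Runx2 and Sp7, and osteocytes buried in bone make Sost, an inhibitor of Wnt signalling.

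The sequences matter first for osteocalcin, because the genes for it lie side by side and are close to identical. Bglap (chr3:88383501-88384464, minus strand, GRCm38), Bglap2 (chr3:88377736-88378699) and Bglap3 (chr3:88368616-88372743) lie within 15.8 kb. The coding sequences of Bglap and Bglap2 in GENCODE M21 are shown because reads from the stretches they share cannot be assigned to a single gene. Capitals in the second sequence mark the bases that differ from the first.
Bglap: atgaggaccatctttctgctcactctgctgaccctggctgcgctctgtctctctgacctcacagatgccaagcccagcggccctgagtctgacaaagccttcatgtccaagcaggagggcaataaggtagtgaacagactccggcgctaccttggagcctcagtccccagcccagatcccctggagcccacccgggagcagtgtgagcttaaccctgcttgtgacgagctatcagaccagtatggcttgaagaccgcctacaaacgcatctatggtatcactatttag
Bglap2: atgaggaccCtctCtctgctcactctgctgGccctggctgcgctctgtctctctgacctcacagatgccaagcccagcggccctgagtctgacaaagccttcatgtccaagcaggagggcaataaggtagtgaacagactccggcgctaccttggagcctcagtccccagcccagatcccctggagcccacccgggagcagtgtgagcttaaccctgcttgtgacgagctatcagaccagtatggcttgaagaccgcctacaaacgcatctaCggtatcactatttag
Both are 288 bases long, differ at 4 bases (98.6% identity) and share an identical run of 241 bases. Of all 100-base windows of the transcripts of each gene, 38.7% of those of Bglap and 57.0% of those of Bglap2 also occur in another of the 3 genes. With 50-base windows these shares were 56.6% and 88.2%, and with 150-base windows 19.6% and 28.6%. The read length is not given in the sources used here. A read from such a window could not be assigned to one gene by its sequence, so the separate counts of Bglap and Bglap2 are uncertain.

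The 5 SIBLING genes lie on the plus strand of chromosome 5 within 270.3 kb, in the order Dspp (chr5:104170712-104180127), Dmp1 (chr5:104202613-104214102), Ibsp (chr5:104299171-104311469), Mepe (chr5:104325329-104338611) and Spp1 (chr5:104435118-104441050). The 250 bases before the RefSeq start (GRCm38.p6) are shown for Spp1 (chr5:104434861-104435110), Dmp1 (chr5:104202367-104202616) and Sost (chr11:101967016-101967265, minus strand), whose counts moved most upward, modestly downward and most downward among the tested genes. Capitals mark ACCACA (the core bound by Runx factors), TATAAA and CCAAT, searched on both strands, so that ATTGG is CCAAT on the other strand.
Spp1: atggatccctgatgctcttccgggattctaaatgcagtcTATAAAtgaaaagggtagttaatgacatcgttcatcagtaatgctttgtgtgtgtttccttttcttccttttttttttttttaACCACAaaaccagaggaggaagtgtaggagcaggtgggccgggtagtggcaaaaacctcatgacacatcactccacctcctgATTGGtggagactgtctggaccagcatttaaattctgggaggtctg
Dmp1: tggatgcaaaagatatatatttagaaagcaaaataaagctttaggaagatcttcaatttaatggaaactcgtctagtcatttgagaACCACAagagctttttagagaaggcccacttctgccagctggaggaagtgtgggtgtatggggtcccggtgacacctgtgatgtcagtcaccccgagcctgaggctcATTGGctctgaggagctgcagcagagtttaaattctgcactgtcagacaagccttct
Sost: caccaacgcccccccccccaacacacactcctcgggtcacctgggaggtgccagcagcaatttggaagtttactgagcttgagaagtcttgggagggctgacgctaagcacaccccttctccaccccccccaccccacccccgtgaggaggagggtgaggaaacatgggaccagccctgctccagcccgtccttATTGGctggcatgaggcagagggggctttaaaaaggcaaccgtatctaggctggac
RefSeq windows were matched for 7 of the 10 genes (Dmp1, Ibsp, Spp1, Mepe, Bglap, Phex and Sost). CCAAT was present in 6 of these 7, all but Phex, and in 33.8% of all 32851 windows of the same length. ACCACA was present in 4 of 7 (Dmp1, Spp1, Mepe and Bglap) and in 14.0% of all windows. TATAAA was present in 4 of 7 (Ibsp, Spp1, Mepe and Bglap) and in 12.4% of all windows. These motifs were chosen after the sequences had been seen, and a match describes letters only.

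Libraries held 16574548 to 20262601 counts at P5 and 17588152 to 22013456 at P12, of which the 10 genes took 0.777% to 1.022% at the younger age and 1.111% to 1.399% at the older. These are shares of total counts, a scale on which the median log2 fold change of all tested genes was itself 0.38. Dspp had the largest count of the 10 genes in every library. Values below are normalized counts: each count was divided by its library's effective size (total count times the TMM factor of edgeR) and scaled to the mean of these sizes. P5 values are given in the order of libraries 1, 3, 4 and 5, and P12 values in the order of libraries 1, 2, 3 and 4. The labels describe the cells as epithelial in origin. The ameloblast genes Amelx and Ambn had the highest mean counts among the markers examined at P5. The odontoblast gene Dspp ranked 7 at P5 and 5 at P12 among all genes by mean normalized count, and 11 and 14 per kilobase of gene length. At P12 the mean of Ambn (333611) was above that of Dspp (167051), and that of Amelx (50552) was below it.

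Of the 10 genes, 9 passed the filter on low counts. Between P5 and P12, 4 were higher (Ibsp, Spp1, Bglap2 and Sp7), 2 were lower (Sost and Dmp1) and 3 did not pass the test (Dspp, Bglap and Phex), by edgeR's quasi-likelihood test with a Benjamini-Hochberg adjusted p under 0.05 over 16440 genes. Of all tested genes, 28.8% were called higher and 28.4% lower. The median log2 fold change was 0.32 over the 9 genes and 0.01 over all tested genes. In bulk tissue, fewer cells of a type and less RNA per cell cannot be told apart.

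**Figure D1:**
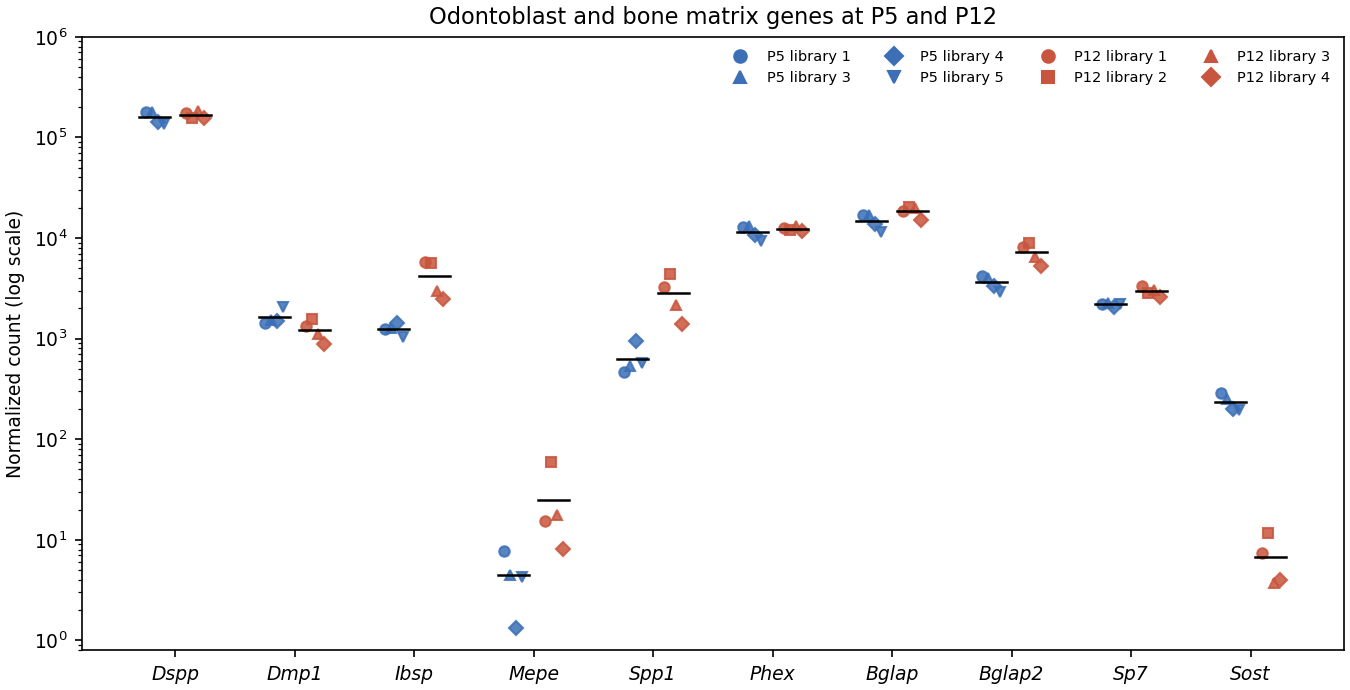
Normalized count (log axis) of each of the 10 genes in the 4 P5 libraries (blue) and the 4 P12 libraries (red), with a symbol for each library number and black lines at the means. Ibsp, Mepe, Spp1, Bglap2 and Sp7 were higher in every P12 library than in any P5 library, Sost was lower in every P12 library, and the ages overlapped for Dspp, Dmp1, Phex and Bglap.

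Dspp, which encodes the precursor of dentin sialoprotein and dentin phosphoprotein, was the most abundant of the 10 genes at both ages. Its normalized counts were 176747, 180179.8, 140781 and 136517 at P5, against 172838, 156051, 182568 and 156745 at P12. The ages overlapped throughout, with means of 158556 ± 23095 and 167051 ± 12929 (SD, n = 4 each). The log2 fold change was 0.08 with a standard error (SE) of 0.13 (edgeR adjusted p = 0.6417), so that a difference between the ages was not detectable against the spread of the pools.

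Dmp1, made by odontoblasts and osteocytes, lies next to Dspp and had a lower mean at P12. The normalized counts were 1444, 1515, 1482 and 2078 at P5, against 1321, 1561, 1103 and 889.5 at P12. Library 5 was the highest at P5, library 4 was the lowest at P12, and P12 library 2 exceeded 3 of the P5 libraries. The log2 fold change was -0.42 (SE 0.17, edgeR adjusted p = 0.04881), whereas an exact permutation test (two-sided, n = 4 each) gave p = 0.1143. The call was lost when any of 6 single libraries was left out (P5 libraries 3, 4 and 5 and P12 libraries 1, 3 and 4), with log2 fold changes between -0.56 and -0.28 and edgeR adjusted p between 0.01224 and 0.1487 over all 8 omissions. Without P5 library 5 and P12 library 4 together, an alternative chosen after the data had been seen, it was -0.16 (adjusted p = 0.1861).

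Phex, the membrane peptidase lost in X-linked hypophosphatemia (chrX:157162075-157415312, minus strand), acts on SIBLING peptides. Its normalized counts were 12987, 13157, 10642 and 9435 at P5, against 12495, 12104, 13032 and 11666 at P12. P5 libraries 4 and 5 were the low ones, as they were for Dspp, and all P12 libraries of Phex fell between the extremes of P5. The log2 fold change was 0.09 (SE 0.11, edgeR adjusted p = 0.4814).

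Ibsp, bone sialoprotein, a nucleator of hydroxyapatite, rose between the ages. Its normalized counts were 1232, 1281, 1419.7 and 1046 at P5, against 5834, 5645, 2972 and 2485 at P12. The ages did not overlap, and P12 libraries 1 and 2 stood well above P12 libraries 3 and 4. The mean rose 3.41-fold in the fit, from 1245 ± 155 to 4234 ± 1752 (SD, n = 4 each; log2 fold change 1.77, SE 0.25, edgeR adjusted p = 0.00012). The exact permutation test (two-sided) gave p = 0.0286, the smallest that 4 against 4 libraries allow.

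Spp1, osteopontin, is secreted by osteoblasts, osteoclasts and macrophages and inhibits crystal growth. The normalized counts were 467, 532, 956 and 577 at P5, against 3277, 4429, 2157 and 1408 at P12. Every P12 library was above every P5 library, P5 library 4 was the highest of its age, and P12 library 4 the lowest of its own. The fitted increase was 4.47-fold (log2 fold change 2.16, SE 0.33, edgeR adjusted p = 0.00019), and 538 of the 16440 tested genes had a larger log2 fold change. Of the exonic bases of Spp1, 18.8% are shared with Gm42793 on the same strand, a transcript with at most 12 counts in any library.

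Mepe, an osteocyte phosphoglycoprotein, was close to the limit of detection and did not pass the filter. The raw counts were 6, 4, 1 and 4 at P5, against 21, 70, 19 and 8 at P12. The normalized counts did not overlap between the ages (1.3 to 7.7 at P5 and 8.0 to 59.1 at P12; exact permutation test, two-sided, n = 4 each, p = 0.0286), but the highest P5 and lowest P12 values nearly met, and P12 library 2 held most of the reads. With no filter, the log2 fold change was 2.49 (SE 0.59, edgeR adjusted p = 0.00136). Mepe passed the filter and was called higher without P12 library 4 (2.74, edgeR adjusted p = 0.001774). The same held without any single P5 library (2.2 to 2.82, edgeR adjusted p between 0.01463 and 0.03075).

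Along the cluster on chromosome 5, the gaps between successive genes were 22.5 kb from Dspp to Dmp1, 85.1 kb from Dmp1 to Ibsp, 13.9 kb from Ibsp to Mepe and 96.5 kb from Mepe to Spp1. Of the flanking genes, Pkd2, which encodes the channel polycystin-2, had a log2 fold change of 0.31 (SE 0.05, edgeR adjusted p = 0.00043), and Gm26703 one of 0.52 (SE 0.29, adjusted p = 0.1491). Within each library, the log2 ratio of Dmp1 to Dspp was -6.61 ± 0.41 at P5 and -7.13 ± 0.37 at P12 (SD, n = 4 each), and the ages overlapped (difference -0.52, exact permutation test, two-sided, p = 0.1143).

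**Figure D2:**
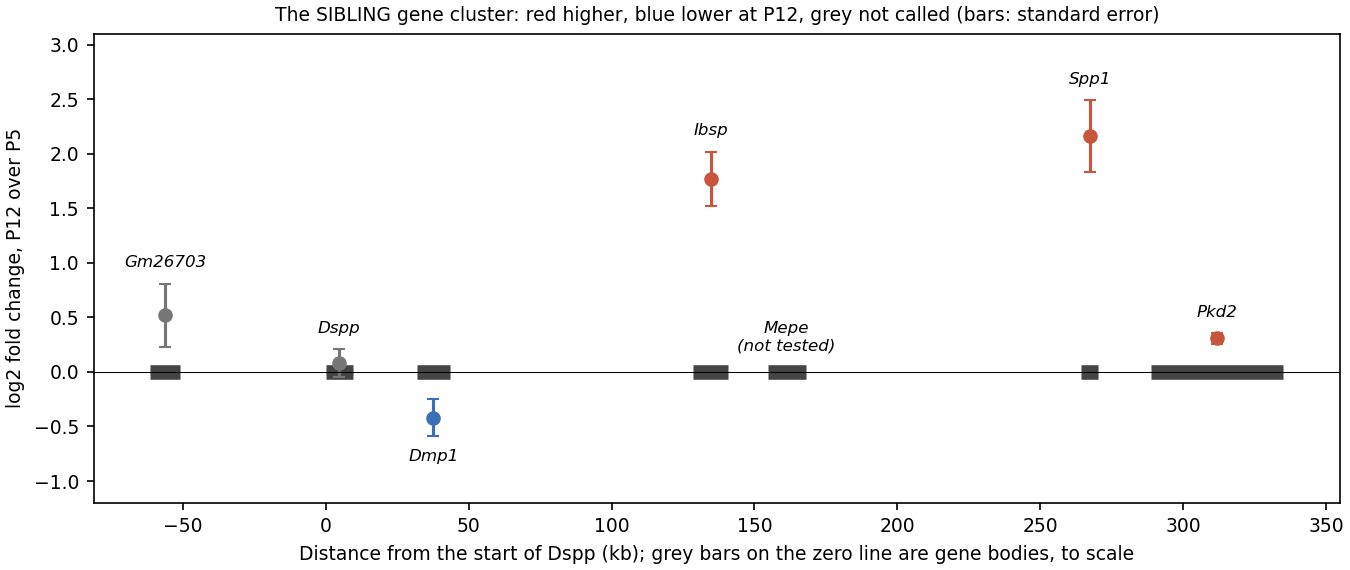
log2 fold change (P12 over P5, bars are standard errors) of the SIBLING genes and their tested neighbours against distance from the start of Dspp in kb, with gene bodies drawn to scale as bars on the zero line. Dspp (0.08) and Dmp1 (-0.42) lie below Ibsp (1.77) and Spp1 (2.16), and Mepe was not tested.

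Sp7, osterix, the transcription factor required for osteoblast differentiation (chr15:102356606-102367182, minus strand), rose modestly and with little spread. Its normalized counts were 2223, 2246, 2062 and 2203 at P5, against 3307, 2858, 3049.6 and 2575 at P12. Every P12 library was above every P5 library. The log2 fold change was 0.43 (SE 0.08, edgeR adjusted p = 0.00061), or 1.35-fold.

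The osteocalcins are vitamin K dependent proteins of osteoblasts and odontoblasts. Bglap2 had normalized counts of 4172, 4008, 3343 and 2931 at P5, against 8165, 8865, 6397 and 5269 at P12, with no overlap. Its log2 fold change was 0.99 (SE 0.16, edgeR adjusted p = 0.00032).
Bglap had normalized counts of 16799.7, 16888, 13891 and 11549 at P5, against 18606, 20156, 19813 and 15126 at P12, and here P12 library 4  fell within the range of P5. Its log2 fold change was 0.32 (SE 0.13, edgeR adjusted p = 0.06191), and 7 of the 18 alternatives called it higher, among them DESeq2 (adjusted p = 0.03207) and the omission of P12 library 4, P5 library 1 or P5 library 3 (edgeR adjusted p between 0.01098 and 0.04986).
Bglap3, which is no member of the set, had raw counts of 7, 1, 0 and 0 at P5, against 30, 35, 27 and 11 at P12. With the counts of the 3 genes summed, the normalized counts were 18398 ± 3142 at P5 and 25621 ± 3684 at P12 (SD, n = 4 each). The log2 fold change of the sum was 0.48 (SE 0.14, edgeR adjusted p = 0.01234). How reads matching more than 1 of these genes were counted is not known, so the sum may lack or repeat such reads. The count of Bglap2 relative to that of Bglap was 24.5% on average at P5 and 38.75% at P12, a ratio chosen after the data had been seen, and the ages did not overlap (log2 difference 0.65, exact permutation test, two-sided, n = 4 each, p = 0.0286).

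Sost, sclerostin (chr11:101962458-101967015, minus strand), showed the largest change of the 10 genes. Its raw counts were 223, 222, 153 and 186 at P5, against 10, 14, 4 and 4 at P12. The normalized count fell from 233 ± 42.4 to 6.72 ± 3.77 (SD, n = 4 each), 33.3-fold lower in the fit (log2 fold change -5.06, SE 0.29, edgeR adjusted p = 8.5e-08; exact permutation test, two-sided, p = 0.0286). Of the 16440 tested genes, 45 had a lower log2 fold change.

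**Figure D3:**
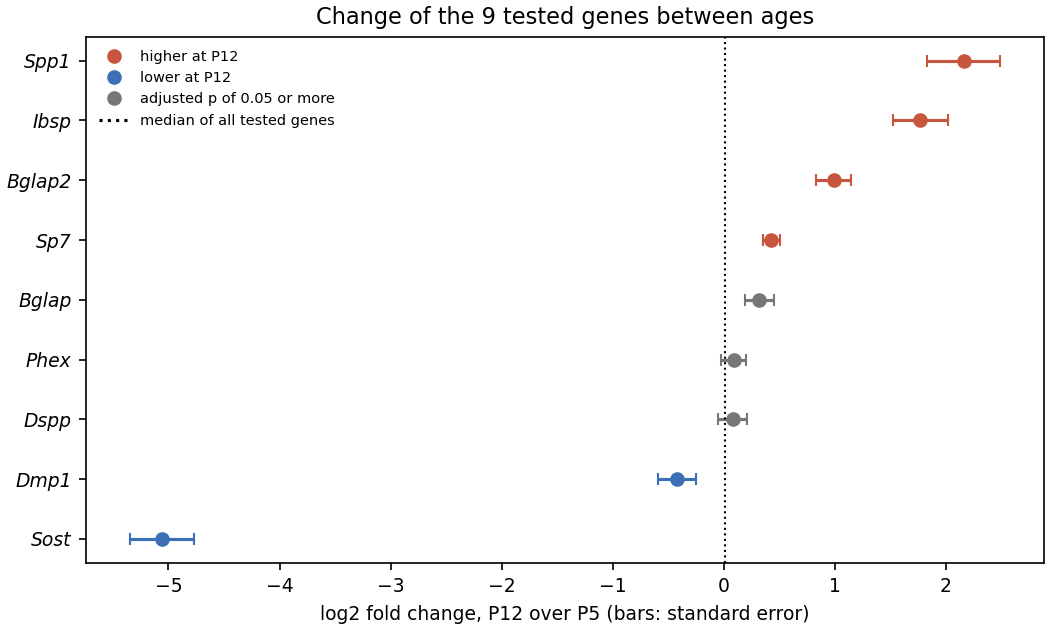
log2 fold change (P12 over P5) of the 9 tested genes with standard errors, red where higher, blue where lower and grey where the adjusted p was 0.05 or more, with a dotted line at the median of all tested genes (0.01). Spp1 (2.16), Ibsp (1.77), Bglap2 (0.99) and Sp7 (0.43) lie to the right, and Dmp1 (-0.42) and Sost (-5.06) to the left.

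Of the 9 tested genes, 4 lay above P5 in every P12 library, against 26.0% of all tested genes, and 1 lay below, against 26.6%. The calls for Ibsp, Spp1, Bglap2 and Sp7 were kept in all 18 alternatives, with log2 fold changes of 1.42 to 2.16, 1.79 to 2.55, 0.77 to 1.37 and 0.37 to 0.81. That for Sost was kept in all 17 alternatives in which it could be tested (-5.56 to -4.68). Scaling by total count moved the median of all genes from 0.01 to 0.38. On that scale Dspp (0.45), Phex (0.47) and Bglap (0.70) also passed the test as higher and Dmp1 was at -0.04 (edgeR adjusted p = 0.8584), to be read against that median.

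Levels of different genes were compared as normalized counts per kilobase of gene length. The places of Bglap and Bglap2 at both ages rest on their separate counts, and the spread between libraries does not measure the uncertainty from shared sequence. At P5, Dspp was the highest (35783 ± 5212), followed by Bglap (23919 ± 4152), Bglap2 (7672 ± 1229.7) and Phex (1837 ± 289), and the ranges of these 4 did not overlap. Sp7 (643 ± 24.4), Ibsp (602 ± 74.8) and Dmp1 (589.5 ± 109) could not be ordered beyond their spread, and Spp1 (384 ± 134) overlapped with the last 2 of them. Sost (113 ± 20.5) and Mepe (2.64 ± 1.55) were lowest (all SD, n = 4).
At P12, Dspp (37700.4 ± 2918), Bglap (29814 ± 3718) and Bglap2 (15231 ± 3483) kept the first places without overlap. Ibsp (2047 ± 847), Phex (1959 ± 92.4) and Spp1 (1709.8 ± 801) overlapped one another, and Sp7 (867 ± 90.9) overlapped with Spp1. Dmp1 (441 ± 104) lay below them, and Mepe (14.9 ± 13.7) and Sost (3.25 ± 1.83), which overlapped, were last (all SD, n = 4). The mean level of Sost was above that of Mepe at P5 and below it at P12.

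Several of the genes had their extremes in the same pools. At P12, 8 of the 10 had their lowest value in library 4, where 34.33% of all tested genes had theirs, and 6 had their highest in library 2 (23.88% of all tested genes). At P5, 6 of the 10 were lowest in library 5 (30.01%). These libraries also differed most from the others of their age over all genes, by a chi-square per gene between pairs of libraries. It was 31.62 to 74.55 for P12 library 4 against the others, and 8.58 to 18.89 among the others. For P5 library 5 it was 17.09 to 18.51, and 4.76 to 5.88 among the others.

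Ratios within a library do not depend on scaling between libraries. Relative to the sum of Col1a1 and Col1a2, the type I collagen of odontoblasts and osteoblasts, which made up between 3.91% and 5.46% of counts over all libraries, 8 of the 10 genes were above P5 in every P12 library and 1 was below (exact permutation test, two-sided, n = 4 each, p = 0.0286 for each, 12 ratios tested in all). Of all 16440 tested genes, 38.4% were above and 11.4% below on this ratio, and the median difference was 0.35 on the log2 scale, a value to set beside the following. The log2 ratio was higher at P12 by 0.43 for Dspp, 0.46 for Phex, 0.68 for Bglap, 0.78 for Sp7, 1.32 for Bglap2, 2.02 for Ibsp, 2.31 for Mepe and 2.43 for Spp1. For Sost it fell by 4.70. Dmp1 differed by -0.08 (exact permutation p = 0.7143). Dspp and Phex thus lay close to the median of all tested genes. The collagens themselves had log2 fold changes of -0.34 (Col1a1, edgeR adjusted p = 0.05583, and under 0.05 without P12 library 1, P12 library 4 or P5 library 4) and -0.36 (Col1a2, adjusted p = 0.03316). The call for Col1a2 was lost without P12 library 2 or 3 or P5 library 1 or 3 (adjusted p between 0.05204 and 0.1032), and its sign turned with total count scaling (0.02). With Vim as the denominator the differences for Dspp (-0.13) and Phex (-0.10) changed sign, those for Bglap (0.12) and Sp7 (0.22) no longer separated the ages, and that for Dmp1 (-0.64) did.

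**Figure D4:**
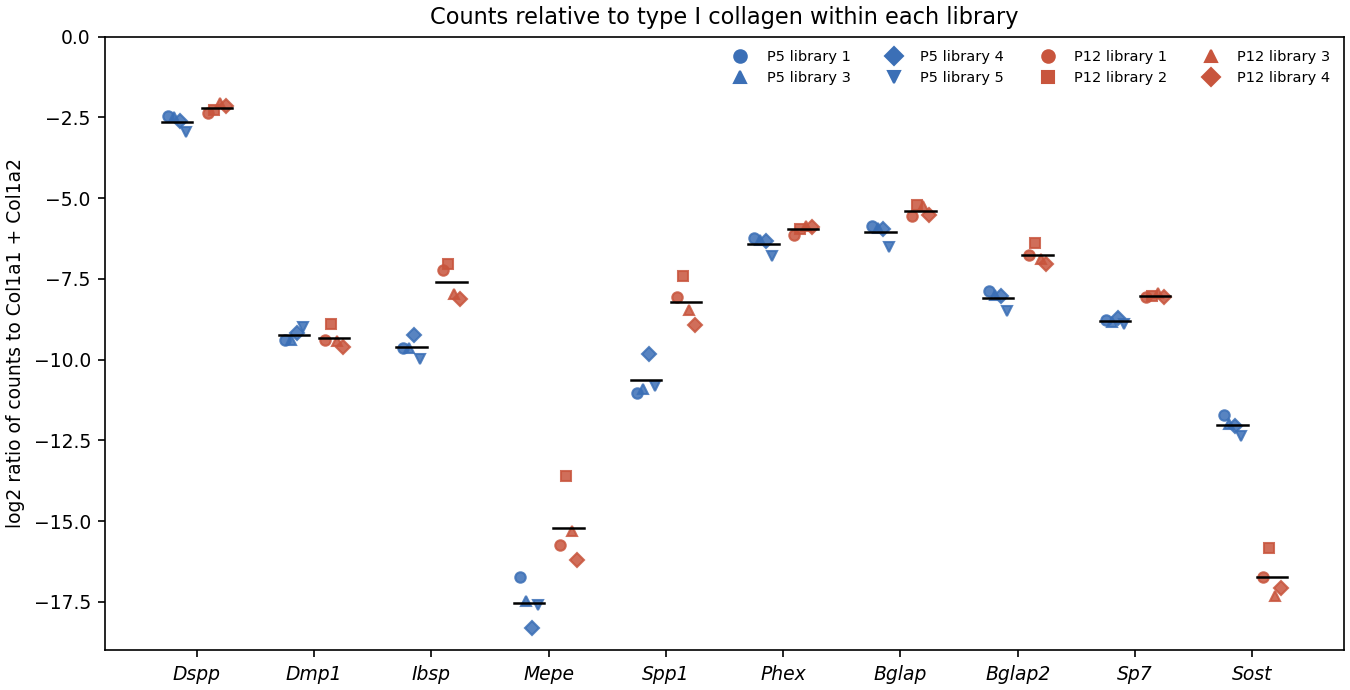
log2 ratio of the count of each gene to the summed count of Col1a1 and Col1a2 in each P5 (blue) and P12 (red) library, with black lines at the means. All 10 genes but Dmp1 separate the ages, Sost downward and the others upward, as 11.4% and 38.4% of all tested genes do, and Sp7 has the tightest groups (-8.80 ± 0.08 at P5 and -8.02 ± 0.05 at P12, SD, n = 4 each).

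Genes of the same pathways and of other cell types in the pools were described as lists. Among 12 genes of odontoblasts and dental mesenchyme, 5 were higher, 2 lower and 5 not called (median log2 fold change 0.20). Pdgfrb (1.96), Lum (1.54), Pax9 (1.31) and Tnc (1.22) rose, and Pdgfra (-0.99) and Dcn (-0.49) fell. Nes, an intermediate filament of odontoblasts, was 1 of the 5 genes not called (-0.12, edgeR adjusted p = 0.2808). It was named beside Dspp outside the rule for list genes and does not stand for the list.

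Among 14 genes of collagen and mineralized matrix, 5 were higher, 5 lower and 4 not called (median -0.22). Postn, a ligament and periosteum protein, had the largest log2 fold change (3.95, SE 0.28, edgeR adjusted p = 4.3e-07), followed by Bglap3 (3.14), Omd (2.03) and Col5a1 (1.18). The value for Bglap3 rests on few counts and was 5.45 without P5 library 1, which holds 7 of its P5 counts. Mgp, an inhibitor of calcification (-1.70), Col24a1 (-0.98), Col11a2 (-0.72) and the osteoblast gene Ifitm5 (-0.66) fell.
Among 9 mineralization enzymes and phosphate genes, 4 were higher and 3 lower (median 0.16). Enpp1, which makes pyrophosphate (1.98), Phospho1 (1.12), the procollagen and Dspp protease Bmp1 (1.0) and Alpl (0.64) rose. Smpd3 (-1.19), the SIBLING kinase Fam20c (-1.13) and Ank (-0.52) fell.

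Among 9 osteoblast transcription factors and receptors, 5 were higher and 2 lower (median 0.35). Vdr (1.06), Pth1r (0.79), Runx2 (0.73, edgeR adjusted p = 0.02109) and Bmpr1a (0.46) rose between the ages, and Dlx5 (-1.25) and Dlx3 (-0.50) fell. Within P12, Runx2, Vdr and Bmpr1a were highest in library 4, where Sp7 and Pth1r were lowest. Without P5 library 5, Runx2 was at 0.56 (edgeR adjusted p = 0.05291). With only the 6 libraries whose numbers occur at both ages, it was at 0.59 (edgeR adjusted p = 0.06855), or 0.51 with a replicate block (0.07291).
Of 8 osteocyte genes and Wnt antagonists, 6 were tested, of which 1 was higher and 3 lower (median -0.30). Dkk1 (-2.35), Sostdc1 (-1.97) and Pdpn (-0.71) fell, as did Sost, and Tnfsf11, the osteoclast differentiation factor, rose (3.03). The osteocyte hormone Fgf23 and the keratocan gene Kera had under 10 counts in every library. Without P12 library 1, Tnfrsf11b (0.92, adjusted p = 0.0226) was called as well, which made 2 higher.
Of 10 proteases and receptors of the SIBLING proteins, 9 were tested, of which 7 were higher and 1 lower (median 0.93). The integrin subunit Itgb3 (2.98), Mmp9 (2.05), Mmp2 (1.67) and the Spp1 receptor Cd44 (0.95) rose, the enamel protease Mmp20 fell (-2.55, edgeR adjusted p = 3e-08), and Mmp3 had under 10 counts in every library.

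Most genes of the ligament, osteoclast and macrophage lists were also called higher at P12, against 28.8% of all tested genes. All 4 periodontal ligament and tendon genes were higher (Aspn 3.76, Scx 2.84, Tnmd 2.79 and Mkx 0.70), and their summed normalized count was 343 to 456 at P5 and 1916 to 3624 at P12. All 7 tested of 8 osteoclast genes were higher (the largest Ocstamp 3.28, or 3.87 without P5 library 5, Acp5 2.34, Ctsk 2.10 and Atp6v0d2 2.05), and their sum was 1289 to 1951 and then 3721 to 8629. Of 7 macrophage genes 5 were higher and none lower (the largest Gpnmb 3.46, Cd68 1.53, Cd14 1.14 and Csf1r 0.44), with sums of 1142 to 1429.5 and of 2058 to 2582. Csf1r was not called without P12 library 1 or 2 or P5 library 3 or 5 (0.33 to 0.40), and 3 macrophage genes in place of 5 were higher without P12 library 1, P12 library 2 or P5 library 5. The osteoclast gene Calcr was not tested, and was called lower without P5 library 1. None of the defining markers of these lists was at 0 in all libraries.
Within P12, Ibsp, Spp1, the osteoclast sum and the periodontal sum were each higher in libraries 1 and 2 than in libraries 3 and 4. The sums of the macrophage, the odontoblast and dental mesenchyme, and the collagen and mineralized matrix lists showed the same split. Those of the mineralization, the osteoblast and the ameloblast lists showed the reverse, and the remaining lists neither. The share of all tested genes with this split was not counted. Within P5, Spp1 and the osteoclast sum were highest in library 4. The part of these cells in the values of Ibsp and Spp1 was not tested.
Of 9 ameloblast genes, 5 were higher (Odam 4.57, Klk4 3.22, Krt14 2.22 and Amtn 1.86 the largest) and 4 lower (Enam -9.95, Amelx -5.74, Ambn -2.57 and Cdh1 -0.31, the last at 0.06 with total count scaling), and their sum was 4995043 to 5630741 at P5 and 743648 to 1207073 at P12. Among the P12 libraries, this sum was highest in library 4, in which 8 of the 10 genes were lowest. The genes of the list differed, however. Ambn, Amelx, Enam, Amtn and Klk4 were highest in library 4, Krt14 was lowest there, and Odam, Cdh1 and Epcam lay between. The part of the ameloblast genes in the values of the 10 genes was not tested.

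**Figure D5:**
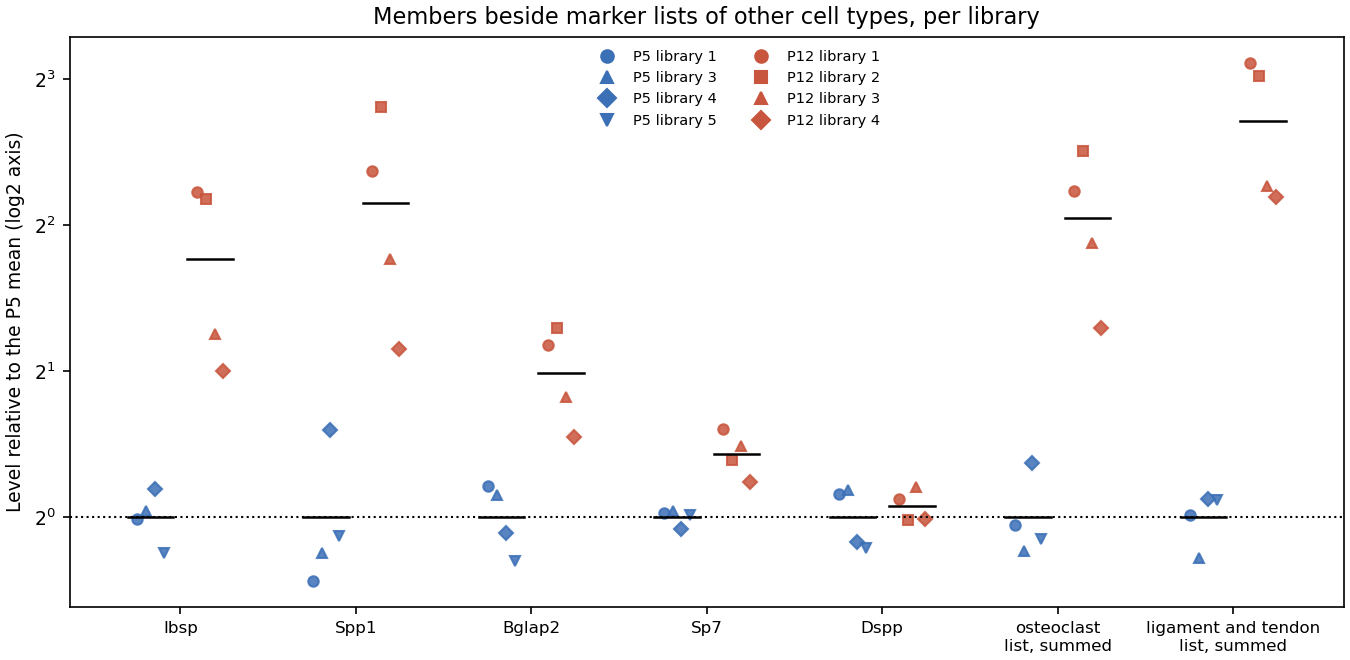
Normalized count of 5 genes and summed normalized counts of the osteoclast and the periodontal ligament and tendon lists in each library, divided by the mean of the P5 libraries (log2 axis, dotted line at the P5 mean, black lines at the means of each age). P12 libraries 1 and 2 lie above P12 libraries 3 and 4 for Ibsp, Spp1, Bglap2 and both lists, whereas Dspp stays near 1 in every library.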

How the data were processed

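The authors deposited unnormalized read counts, as whole numbers, for each gene, with its name, coordinates and length. The aligner, counting program and use of strand are not given in the sources used here. The labels' processing notes name mm39, but 53585 of the 54532 gene identifiers have the coordinates of GENCODE release M21 on GRCm38, the build used here. Columns were assigned to libraries by title. After filterByExpr and TMM, ages were compared by glmQLFTest of edgeR 4.0.16 (R 4.3.3) without covariates, and p-values of the 16440 remaining genes were adjusted by Benjamini-Hochberg. Standard errors of log2 fold changes were derived from this test, as the absolute log2 fold change divided by the square root of its F statistic. The procedure was also run on simulated counts with a small share of genes changed in both directions, which does not test the scaling under changes as broad as those found here. Normalized counts were scaled to a mean effective library size of 19006280. Permutation tests and ratios used log2 with a pseudocount of 1 over 70 arrangements. Alternatives were DESeq2 1.42.0 (named in the study's methods), limma-voom (limma 3.58.1), other scalings, filters and thresholds, omitted libraries and a replicate block. Named list genes were the called genes with the largest absolute log2 fold change, up to 4 in each direction, and those under 10 counts in every library. Nes and some genes whose call changed in an alternative were named besides. The genes and lists were chosen with earlier results of these data known. The list of osteoblast transcription factors and receptors is given without 1 gene, which is not reported here. No library was a duplicate of another.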

Additional observations from a re-analysis of the deposited data

Results flagged for a closer look

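In 4 of 46 groups of 4 libraries examined, one library lay far from the others by Dixon's criterion, where chance gives about 2.3. Dmp1 had a normalized count of 2078 in P5 library 5, with the other P5 libraries between 1444 and 1515. Bglap3 had a normalized count of 8.999 in P5 library 1, with the others between 0 and 1.12. The log2 ratio of Spp1 to Col1a1 and Col1a2 was -9.82 in P5 library 4, with the others between -11.03 and -10.83. The log2 ratio of Bglap to the same collagens was -6.51 in P5 library 5, with the others between -5.96 and -5.86.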

How the results depend on the processing

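Scaling by total count gave 8885 genes higher and 2330 lower, against 4735 and 4676, and called 7 of the 10 genes higher. The number of the 10 genes called higher was 5 in place of 4 with DESeq2. It was 6 with no filter and with P5 library 5 and P12 library 4 left out together, and between 4 and 6 with single libraries left out. The genes added in these settings came from Bglap and Mepe. Requiring a log2 fold change of 1 or more in size left 1864 genes higher and 1677 lower, 2 of the 10 genes higher, and 10 list genes lower. The number of the 10 genes called lower was 1 in place of 2 with total count scaling, scaling without the 20 most abundant genes, at least 10 counts in every library (which left Sost untested), the stricter adjusted p of 0.01, a log2 fold change of 1 or more in size, and P5 library 5 and P12 library 4 left out together, and between 1 and 2 with single libraries left out. Bglap as counted, unlike the sum of the 3 osteocalcin genes, had a log2 fold change of 0.32 (edgeR adjusted p = 0.06191). With Vim as the denominator the log2 ratios differed by -0.13 for Dspp, -0.64 for Dmp1, 0.12 for Bglap, -0.10 for Phex and 0.22 for Sp7, and with Sparc by 0.32 for Dspp and 0.34 for Phex (exact permutation p = 0.0571 for both). The cause was not tested.

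Libraries with the same number did not deviate together (correlations of -0.032, 0.028 and -0.014 for numbers 1, 3 and 4), so the numbers were not taken as pairs. The replicate block over the 6 libraries that share numbers called 4 of the 10 genes higher and 2 lower, as did the same 6 libraries without it, with 3867 genes higher and 3843 lower in all against 4076 and 4041. Depth limits Mepe, Bglap3 and, at P12, Sost, which had few counts.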
